A study of Homo sapiens with 29 samples.

Results

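The 9 interferon regulators described here were the ligand IFNB1 (interferon beta), the transcription factors STAT2, STAT3, IRF1, IRF2, IRF3, IRF7 and IRF9, and the signaling inhibitor SOCS1. They were chosen by name, and their probes were found through the RefSeq accession that each array lists for a probe. They made up 9 of the 22439 genes named on the array and had 11 of its 58201 probes. All 11 were among the 38714 probes tested, which were those well above background on at least 2 arrays by the scanner software's own flag. IFNB1 passed this filter only through siZNF148 arrays, 3 at 96 h in growth media and 1 at 48 h in differentiation media.

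LHCN-M2, the only cell type studied, is an immortalized line of human skeletal myoblasts that goes back to 1 selected clone. All groups were transfected, either with 20 nM of a nontargeting siRNA (siControl) or with 20 nM of an siRNA against the zinc finger factor ZNF148 (siZNF148). Subconfluent cells were collected at 24 h in growth media, and confluent cells at 48 h and at 96 h in growth media or in differentiation media. Each of the 10 groups had 3 arrays of separate biological replicates, apart from siControl at 96 h in growth media, which had 2. The RNA came from whole cultures, in which fewer expressing cells and less RNA per cell cannot be told apart.

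Type I interferons such as interferon beta bind a receptor made of IFNAR1 and IFNAR2, whose kinases phosphorylate STAT2. Phosphorylated STAT2 enters a complex with IRF9 that binds interferon-stimulated response elements (ISRE) and switches on antiviral genes. One of these genes encodes IRF7, which acts with IRF3 in transcription of the interferon genes themselves, while SOCS1 binds the receptor kinases and damps the signal.

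The promoters of the regulators are shown because several of these genes moved together at 96 h. RefSeq windows of 300 bases (GRCh38.p14), from 250 bases before to 50 bases after the start of the gene, were found for IFNB1, STAT2, STAT3, IRF1, IRF9 and SOCS1, which is 6 of the 9 genes. Windows for IRF2, IRF3 and IRF7 were not used here. The windows below are those of IFNB1 (chr9:21077893-21078192, minus strand), IRF9 (chr14:24161015-24161314, plus strand), STAT2 (chr12:56360058-56360357, minus strand), IRF1 (chr5:132490724-132491023, minus strand) and SOCS1 (chr16:11256155-11256454, minus strand). Capitals mark every match to an ISRE core (GAAANNGAA), a core of the STAT site called GAS (TTCNNNGAA) or a shorter IRF core (AANNGAAA), searched on both strands with N as any base.
IFNB1: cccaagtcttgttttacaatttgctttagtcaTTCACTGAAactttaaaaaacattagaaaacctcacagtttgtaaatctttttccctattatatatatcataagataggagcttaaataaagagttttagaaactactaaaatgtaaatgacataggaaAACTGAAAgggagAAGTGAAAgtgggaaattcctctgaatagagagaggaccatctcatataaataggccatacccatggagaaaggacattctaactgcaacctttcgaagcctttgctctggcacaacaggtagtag
IRF9: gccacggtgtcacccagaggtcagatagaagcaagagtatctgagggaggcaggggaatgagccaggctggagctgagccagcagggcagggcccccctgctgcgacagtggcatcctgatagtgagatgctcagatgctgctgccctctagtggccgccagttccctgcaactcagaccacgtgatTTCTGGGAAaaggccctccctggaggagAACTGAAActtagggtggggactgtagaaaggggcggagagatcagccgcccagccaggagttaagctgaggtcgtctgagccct
STAT2: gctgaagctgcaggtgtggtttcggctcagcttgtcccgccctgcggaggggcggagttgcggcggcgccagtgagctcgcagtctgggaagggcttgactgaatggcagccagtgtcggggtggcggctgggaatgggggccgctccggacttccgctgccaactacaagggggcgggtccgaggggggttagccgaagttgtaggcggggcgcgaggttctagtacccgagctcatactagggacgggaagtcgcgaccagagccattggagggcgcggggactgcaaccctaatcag
IRF1: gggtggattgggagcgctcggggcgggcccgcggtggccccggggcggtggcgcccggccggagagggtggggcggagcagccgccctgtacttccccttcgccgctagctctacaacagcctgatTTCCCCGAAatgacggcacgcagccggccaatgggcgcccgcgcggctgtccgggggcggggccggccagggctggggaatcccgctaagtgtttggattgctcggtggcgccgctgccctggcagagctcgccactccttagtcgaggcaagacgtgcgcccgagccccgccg
SOCS1: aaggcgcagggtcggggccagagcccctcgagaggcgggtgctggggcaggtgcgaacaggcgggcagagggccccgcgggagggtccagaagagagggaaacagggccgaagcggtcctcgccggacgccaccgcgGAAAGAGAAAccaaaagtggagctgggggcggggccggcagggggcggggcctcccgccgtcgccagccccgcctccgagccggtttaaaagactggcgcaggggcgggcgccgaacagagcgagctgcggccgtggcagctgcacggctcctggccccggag

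The ISRE core was found in SOCS1 alone among the 6 windows, with its first base 113 bases before the start, and in 8.11% of all 35116 promoter windows. The GAS core was found in 3 of the 6, in IFNB1 at 218, IRF1 at 124 and IRF9 at 63 bases before the start, and in 7.66% of all windows. The IRF core, a motif added after the first search had been seen, was found in 3 of the 6 and in 22.8% of all windows. IFNB1 held it at 89 and at 76 bases before the start, IRF9 at 35, and SOCS1 at 111, where it overlaps the ISRE core. STAT2 and STAT3 held none of the motifs in these windows. Among 46 windows of the interferon-stimulated effector genes described below, 31 held the ISRE core (67.4%), 13 the GAS core (28.3%) and 40 the IRF core (87%).

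The targeted gene ZNF148 was lower in every siZNF148 group, with log2 changes from -2.74 to -1.53 and no overlap with siControl. All 8 myoblast markers were well above background on 15 or more arrays, as were 0 of 4 epithelial markers, 3 of 4 endothelial markers and 2 of 7 blood cell markers. The plasmacytoid dendritic cell markers IL3RA and CLEC4C were well above background on 0 arrays. The summed level of 5 tested blood cell markers ran from 11.73 to 11.82 (log2) in siControl and from 8.02 to 8.29 in siZNF148 at 96 h in growth media, and from 7.89 to 7.94 and from 7.52 to 7.81 in differentiation media. The summed level of 7 muscle differentiation markers in siZNF148 was 19.82 to 19.87 at 48 h and 19.77 to 19.81 at 96 h in growth media, and 20.08 to 20.1 and 20.18 to 20.22 in differentiation media. In siControl it was 14.1 to 14.18 at 24 h, 14.62 to 18.84 at 48 h and 15.34 on both arrays at 96 h in growth media, and 15.35 to 16.26 and 18.05 to 18.19 in differentiation media. The part of these markers in the results was not tested. All 24 h arrays shared 1 slide and 1 scan, and the other arrays were on 3 other slides, so that hour, confluence and slide cannot be told apart between 24 h and the later times. The 48 h siControl array in growth media with the highest muscle marker level is replicate 1, and it is named below where a result rests on it.

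The interferon response at 96 h was measured on 38 interferon-stimulated effectors, antiviral genes downstream of the regulators. With siZNF148 at 96 h, 37 of the 38 were higher and 0 lower in growth media, and 34 were higher and 2 lower in differentiation media (limma, adjusted p under 0.05), against 26.1% and 30.3% of all 18398 genes tested in growth media and 25.2% and 34% in differentiation media. The median log2 changes were 3.48 and 2.39, beside -0.03 and -0.06 over all genes. In growth media the changes led with BST2 (8.05), MX1 (7.39), ISG15 (6.04) and OAS1 (5.97), after the exclusion of genes below background on any array of either group, and in differentiation media with ISG15 (5.17), MX1 (5.04), OAS1 (4.97) and MX2 (4.81). At 24 h, 2 were higher and 16 lower, against 15.7% and 16.8% of all genes. At 48 h, 17 and 15 were in growth media, against 26.9% and 31.1%, and 8 and 20 in differentiation media, against 30.2% and 34.7%. Median changes were -0.41, 0.22 and -0.36, and single changes at 48 h in growth media ran from -1.91 to 3.76. Effectors thus moved earlier too, and the response at 96 h stood apart by median level and by the number called higher. Centred on each gene's mean, the median level of the effectors in siZNF148 at 96 h was 3.12 in growth media and 2.06 in differentiation media. In the other 8 groups it was -1.26 to -0.25.

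Of the 9 regulators, IRF7, IRF9, STAT2 and IFNB1 rose with this response in growth media. In differentiation media IRF7, IRF9 and, at signals below background, IFNB1 were called higher, while IRF1, SOCS1, IRF3 and STAT3 were called lower.

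**Figure D1:**
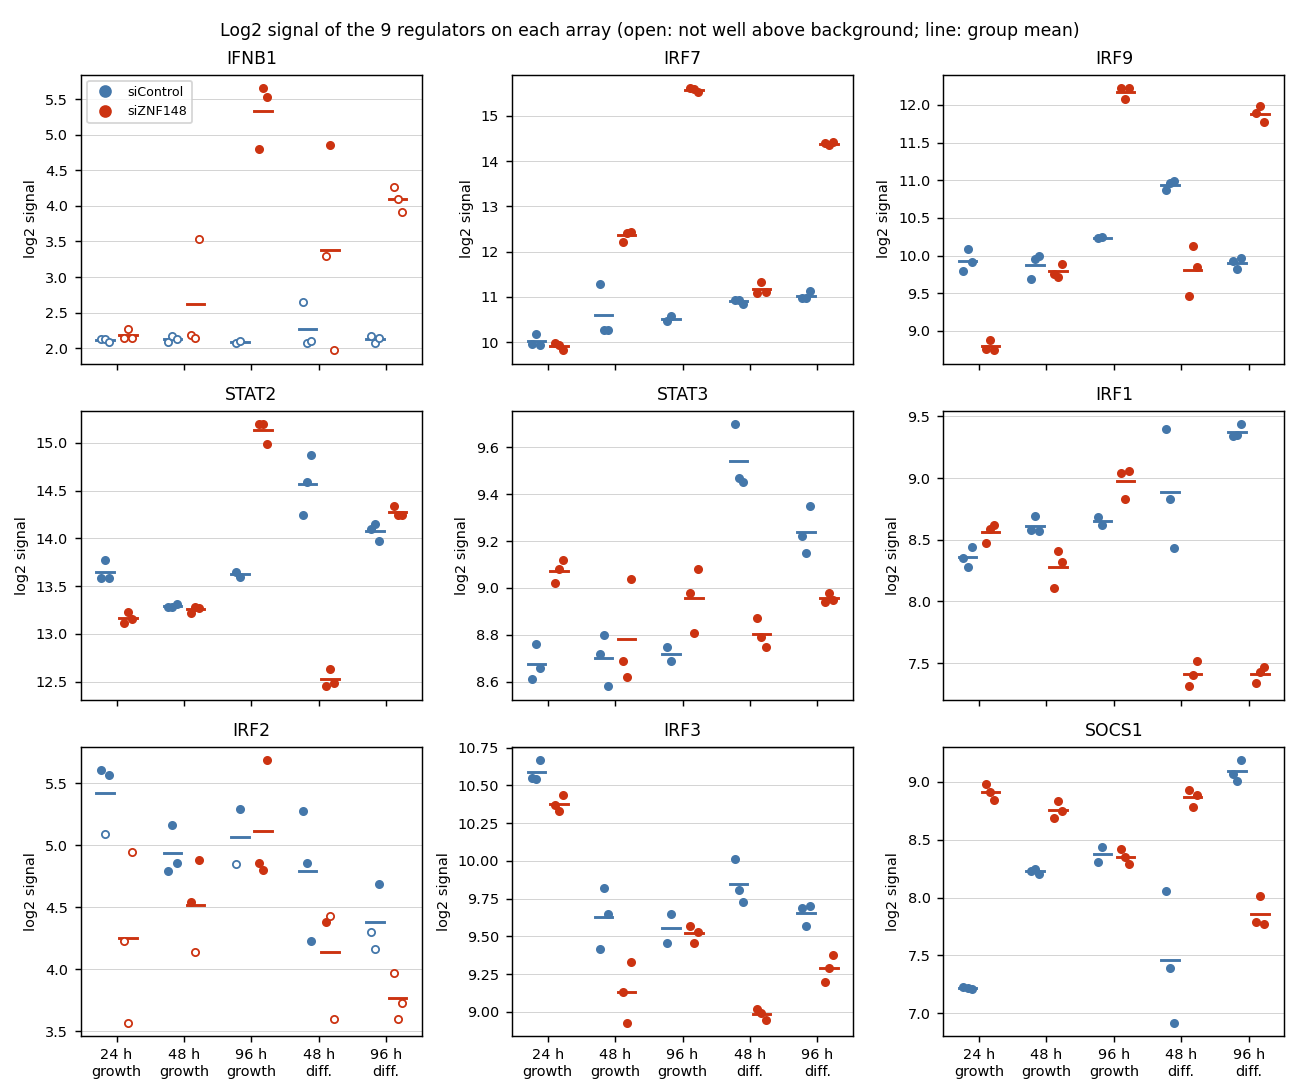
Log2 signal of the 9 regulators (one panel each, with its own axis range) on each of 29 arrays, by hour and media, with siControl in blue and siZNF148 in red. Lines are group means and open points are arrays where the probe was not well above background; the siZNF148 arrays at 96 h in growth media lie above all other arrays for IRF7, IRF9 and STAT2.

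IFNB1 is the ligand of the pathway, an interferon that cells secrete on sensing foreign nucleic acid. Levels here and below are log2 quantile-normalized signals of 1 probe, so they compare arrays and not genes. Knockdown groups without overlap were common among all 18398 genes tested. The shares were 55.6% at 24 h, 62.9% at 48 h and 75.2% at 96 h in growth media. In differentiation media they were 70.2% at 48 h and 65.6% at 96 h. Lack of overlap is read only beside these shares. The siZNF148 arrays at 96 h in growth media read 4.8, 5.66 and 5.53, all 3 well above background, and the 2 siControl arrays read 2.08 and 2.1, both not well above background. The groups did not overlap. IFNB1 was at least 2.33-fold higher with siZNF148, a bound set against the lowest signal well above background on each siControl array (fitted log2 change 3.24 ± 0.503 SE, limma adjusted p = 1.46e-05). With normexp background correction the fitted change was 0.69, which lies below that bound. The bounds given here and below therefore apply to the background-subtracted signals used here and not to other background corrections. 

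In differentiation media at 96 h the siZNF148 arrays read 4.27, 4.1 and 3.91 and the siControl arrays 2.17, 2.08 and 2.14. The groups did not overlap and the test called them different (adjusted p = 0.000939), but no array of either group was well above background, so no fold is given. At 48 h in differentiation media siZNF148 read 3.3, 4.86 and 1.97 against 2.65, 2.08 and 2.1 in siControl. The groups overlapped and only the array at 4.86 was well above background, and the call (1.1 ± 0.45 SE, adjusted p = 0.0454) was lost without that array (adjusted p = 0.452). At 24 h and at 48 h in growth media none of the 12 arrays was well above background.

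IRF7, a factor that drives transcription of interferon genes and is itself induced by interferon, made the largest change of the 9 regulators at 96 h in both media. In growth media the siZNF148 arrays read 15.62, 15.59 and 15.52 and the siControl arrays 10.46 and 10.57. These groups were the farthest apart of any regulator in any knockdown comparison, at 5.06 ± 0.191 (SE, adjusted p = 1.46e-14), which is 33.4-fold. At 96 h in differentiation media siZNF148 read 14.39, 14.36 and 14.41 against 10.97, 10.98 and 11.13. The groups again did not overlap, and the change was 3.36 ± 0.171 (adjusted p = 9.22e-13).

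IRF7 had already risen at 48 h in growth media, with 12.22, 12.42 and 12.43 in siZNF148 against 11.29, 10.27 and 10.27 in siControl. The siControl array at 11.29 is replicate 1, which stands apart in its muscle genes, and the change was 1.74 ± 0.171 (adjusted p = 2.71e-08) with it and 2.09 ± 0.0892 (adjusted p = 5.45e-14) without it. In differentiation media at 48 h the siZNF148 arrays read 11.08, 11.33 and 11.12 and the siControl arrays 10.93, 10.94 and 10.85. The groups did not overlap, but the change of 0.27 ± 0.171 did not pass the test (adjusted p = 0.213), although it did when siControl replicate 1 at 48 h in growth media was left out of the shared fit (adjusted p = 0.00737) and with 75th percentile scaling (0.44, adjusted p = 0.0315). At 24 h siZNF148 read 9.99, 9.93 and 9.82 and siControl 9.97, 10.18 and 9.93, and the groups overlapped (-0.11 ± 0.171, adjusted p = 0.746). Within slides, the knockdown difference of IRF7 was 5.07 on the slide that held both siRNAs at 96 h in growth media, 3.22 and 3.43 at 96 h in differentiation media, and 2.16, 1.12 and 1.95 at 48 h in growth media. Each of these values rests on 1 siZNF148 array against 1 or 2 siControl arrays. At 96 h in growth media the siControl arrays shared 1 slide, and the other siZNF148 arrays were on another slide, so siRNA and slide are partly mixed there.

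IRF9 is the DNA-binding subunit of the interferon-activated complex that also holds STAT2. At 96 h it read 12.23, 12.08 and 12.22 in siZNF148 against 10.23 and 10.24 in siControl in growth media, and 11.9, 11.99 and 11.77 against 9.93, 9.82 and 9.97 in differentiation media. Neither pair of groups overlapped, and the changes were of like size, 1.94 ± 0.136 (adjusted p = 2.02e-10) and 1.98 ± 0.122 (adjusted p = 1.64e-11). The difference between these effects was 0.04 ± 0.183 (adjusted p = 0.914).

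The earlier changes of IRF9 ran the other way. At 24 h siZNF148 read 8.76, 8.88 and 8.74 against 9.79, 10.09 and 9.92 in siControl (-1.14 ± 0.122, adjusted p = 4.35e-07). At 48 h in differentiation media it read 9.46, 10.13 and 9.85 against 10.87, 10.96 and 10.99 (-1.13 ± 0.122, adjusted p = 5.76e-08). Both falls left no overlap, whereas at 48 h in growth media the groups overlapped at 9.76, 9.72 and 9.89 against 9.69, 9.95 and 10 (-0.09 ± 0.122, adjusted p = 0.603).

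STAT2 carries the interferon receptor's signal to the nucleus. At 96 h in growth media siZNF148 read 15.2, 15.2 and 14.99 and siControl 13.65 and 13.6. The groups did not overlap, and STAT2 was 2.83-fold higher (1.5 ± 0.118, adjusted p = 1.13e-09). At 96 h in differentiation media siZNF148 read 14.34, 14.24 and 14.24 against 14.1, 14.15 and 13.97. The groups lay close without overlap, and the change of 0.2 ± 0.106 did not pass the test (adjusted p = 0.124), although it passed with 75th percentile scaling (0.35, adjusted p = 0.0167) and with normexp (0.3, adjusted p = 0.0321).

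At 48 h in differentiation media STAT2 fell, with 12.45, 12.63 and 12.49 in siZNF148 against 14.24, 14.59 and 14.87 in siControl (-2.04 ± 0.106, adjusted p = 4.42e-13). This was the largest fall of any of the 9 regulators in a knockdown comparison. A smaller fall was seen at 24 h, at 13.11, 13.23 and 13.16 against 13.59, 13.77 and 13.59 (-0.48 ± 0.106, adjusted p = 0.00155). At 48 h in growth media the groups overlapped, at 13.22, 13.28 and 13.27 against 13.28, 13.28 and 13.31 (-0.03 ± 0.106, adjusted p = 0.866).

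IRF1, an interferon gamma response factor that can activate interferon-stimulated genes, did not rise with the effectors in differentiation media. At 96 h there siZNF148 read 7.34, 7.43 and 7.47 against 9.34, 9.35 and 9.44 in siControl, a change of -1.96 ± 0.148 (adjusted p = 4.08e-10) without overlap. At 48 h it read 7.31, 7.4 and 7.52 against 9.4, 8.83 and 8.43 (-1.48 ± 0.148, adjusted p = 1.72e-08). The siControl arrays were more spread at 48 h but stayed above all siZNF148 arrays. In growth media IRF1 passed the test at no time, with 9.04, 8.83 and 9.06 in siZNF148 against 8.68 and 8.62 in siControl at 96 h (0.32 ± 0.166, adjusted p = 0.128).

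IRF3, the factor that sensors of viral nucleic acid activate, was well above background on every array and was called higher in none of the 5 knockdown comparisons. It was lower at 48 h in growth media (-0.5 ± 0.102, adjusted p = 0.000301), at 48 h in differentiation media (-0.86 ± 0.102, adjusted p = 1.99e-07) and at 96 h in differentiation media (-0.37 ± 0.102, adjusted p = 0.00457). The arrays at 96 h in growth media read 9.57, 9.46 and 9.53 in siZNF148 and 9.46 and 9.65 in siControl, and they overlapped (-0.04 ± 0.113, adjusted p = 0.87). The second IRF3 probe gave -0.47, -0.67, -0.22 and 0.02 in these comparisons, and the fall at 96 h in differentiation media did not pass with it (adjusted p = 0.0809). The fall at 48 h in growth media did not pass in a fit of that comparison alone (adjusted p = 0.0632) or by the methods' t-test with Benjamini-Hochberg adjustment (0.0928).

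IRF2, a factor that competes with IRF1 for the same sites, was not well above background on several arrays. At 24 h siZNF148 read 4.23, 3.57 and 4.95, all not well above background, and siControl 5.61, 5.09 and 5.57, of which 2 were. IRF2 was at least 1.31-fold lower (fitted change -1.18 ± 0.329, adjusted p = 0.0109), and the call was lost without siZNF148 replicate 2 (-0.84, adjusted p = 0.0895), in a fit of that comparison alone (adjusted p = 0.0894) and by the methods' t-test with and without adjustment. In the other knockdown comparisons its changes ran from -0.65 to 0.05 and did not pass the test. The change at 96 h in differentiation media did pass in a fit of that comparison alone (-0.62, adjusted p = 0.0389), and that at 48 h in differentiation media without siControl replicate 3 (-0.93, adjusted p = 0.0315).

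STAT3 transmits signals of the interleukin-6 family and has been described as a brake on interferon-stimulated genes. Its changes were small and of mixed direction, with 0.4 ± 0.0979 (adjusted p = 0.00418) at 24 h, -0.74 ± 0.0979 (adjusted p = 1.14e-06) at 48 h in differentiation media and -0.28 ± 0.0979 (adjusted p = 0.0199) at 96 h in differentiation media. The last call was lost with the mean of both STAT3 probes (-0.22, adjusted p = 0.122), with normexp (-0.17, adjusted p = 0.151), without siControl replicate 3 (-0.23, adjusted p = 0.0984) and without siZNF148 replicate 1 (-0.27, adjusted p = 0.0501). In growth media at 96 h siZNF148 read 8.98, 8.81 and 9.08 against 8.75 and 8.69 in siControl. The groups did not overlap there, but the change of 0.24 ± 0.109 did not pass the test (adjusted p = 0.0859). It passed without siZNF148 replicate 2 (0.31, adjusted p = 0.0368). The second STAT3 probe gave 0 there (adjusted p = 0.997), and its groups overlapped. That probe gave 0.55 at 24 h and -0.79 at 48 h in differentiation media, and both passed. Its change at 96 h in differentiation media did not (-0.16, adjusted p = 0.506).

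SOCS1, the inhibitor, is itself induced by interferon in many cells. Here it was called higher at 24 h and 48 h and in no comparison at 96 h. At 24 h siZNF148 read 8.98, 8.91 and 8.84 and siControl 7.23, 7.22 and 7.21 (1.69 ± 0.162, adjusted p = 1.01e-07). At 48 h in growth media siZNF148 read 8.69, 8.83 and 8.75 against 8.23, 8.25 and 8.2 (0.53 ± 0.162, adjusted p = 0.00982). In both comparisons all siZNF148 arrays were above all siControl arrays. By 96 h in growth media the groups overlapped, at 8.42, 8.35 and 8.29 against 8.31 and 8.44 (-0.02 ± 0.182, adjusted p = 0.966).

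In differentiation media the direction of the SOCS1 change turned between the hours. At 48 h siZNF148 read 8.93, 8.78 and 8.89 against 8.06, 7.39 and 6.92 in siControl (1.4 ± 0.162, adjusted p = 1.53e-07). At 96 h it read 7.79, 8.01 and 7.77 against 9.07, 9.01 and 9.19 (-1.23 ± 0.162, adjusted p = 1.54e-06). Neither pair of groups overlapped. SOCS1 was 3.09-fold higher at 96 h than at 48 h in siControl (1.63 ± 0.162, adjusted p = 9.52e-08) and 2.01-fold lower in siZNF148 (-1.01 ± 0.162, adjusted p = 5.63e-05).

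**Figure D2:**
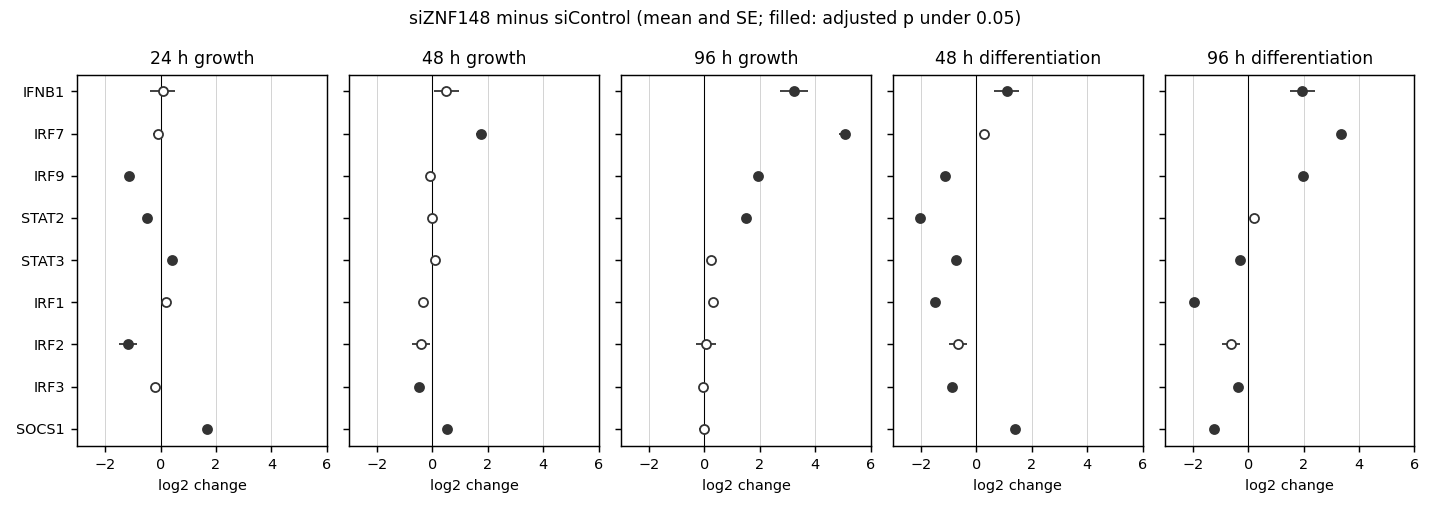
Log2 change (siZNF148 minus siControl) of the 9 regulators in the 5 knockdown comparisons, with bars for the SE of the fit and filled points for an adjusted p under 0.05. IRF7 reaches 5.06 at 96 h in growth media and 3.36 in differentiation media, while STAT2 falls to -2.04 at 48 h in differentiation media; the IFNB1 points rest on signals at or near background.

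Counted over the 9 regulators, 2 were higher and 3 lower with siZNF148 at 24 h, where 15.7% and 16.8% of all 18398 genes tested were called higher and lower. At 48 h in growth media 2 were higher and 1 lower, against 26.9% and 31.1% of all genes. At 96 h in growth media 4 were higher and 0 lower, against 26.1% and 30.3%. The same 0 was given by limma at an unadjusted p under 0.05 and by the methods' t-test without adjustment, which gave 5 regulators higher each. In differentiation media 2 were higher and 5 lower at 48 h, against 30.2% and 34.7%, and 3 were higher and 4 lower at 96 h, against 25.2% and 34%. Calls in either direction were therefore common among all genes, and the counts of the regulators are read only beside these shares. IFNB1 is among the regulators counted higher at 96 h in growth media and at 48 h and 96 h in differentiation media. It passed the filter only through siZNF148 arrays, 3 at 96 h in growth media and 1 at 48 h in differentiation media. Its calls are therefore not independent of the filter. With a fitted change of more than 2-fold also required, 3, 1, 4, 5 and 5 regulators were called in these comparisons, beside 5.54%, 23.9%, 24.7%, 32.4% and 23.3% of all genes. These counts include IRF2 at 24 h, whose bound was 1.31-fold, and IFNB1 at 48 h and 96 h in differentiation media, for which no fold is given, and without them 2, 1, 4, 4 and 4 remain.

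The hours were compared within each siRNA. In siControl 0 regulators were called between 48 h and 96 h in growth media by limma, where 1.9% of all genes were called higher and 0.495% lower (2 regulators were higher at an unadjusted p under 0.05, and 1 by the methods' t-test). In siZNF148 6 were higher at 96 h and 0 lower, against 15.3% and 13.7% of all genes (1 was lower at an unadjusted p under 0.05 and 1 by the methods' t-test). These 6 were IRF7 (3.22 ± 0.171, adjusted p = 1.07e-11), IRF9 (2.39), STAT2 (1.87), IFNB1 (2.71, at least 2.1-fold), IRF1 (0.7) and IRF3 (0.39). Of these, IFNB1 passed the filter only through siZNF148 arrays, 3 of them at 96 h in growth media. In differentiation media siControl had 2 higher and 3 lower at 96 h, against 21.2% and 21.4%, and siZNF148 had 4 higher and 1 lower, against 16.4% and 20.4%. The 4 higher were IRF7 (3.21), IRF9 (2.07), STAT2 (1.75) and IRF3 (0.3), and SOCS1 was lower. The second IRF3 probe did not pass there (0.25, adjusted p = 0.0723), and 3 regulators were higher in place of 4 with 75th percentile scaling, with normexp and with no filter. STAT2 rose from 48 h to 96 h in siZNF148 in both media, by 3.65-fold and 3.37-fold, although at 96 h in differentiation media it ended near the siControl level.

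The difference between knockdown effects was tested directly. From 48 h to 96 h in growth media the difference was called above 0 for 4 regulators and below 0 for 0, against 7.84% and 7.79% of all genes (6 and 1 at an unadjusted p under 0.05; the methods' t-test was not run on these differences). These were IRF7 (3.32 ± 0.256), IRF9 (2.04 ± 0.183), STAT2 (1.53 ± 0.159) and IFNB1. The fitted IFNB1 difference of 2.75 ± 0.675 has no bound, since IFNB1 was not well above background in either 48 h group or in siControl at 96 h, and it passed the filter only through siZNF148 arrays. In differentiation media it was above 0 for 5 and below 0 for 1, against 20.4% and 22.9%, with IRF9 (3.11 ± 0.172), IRF7 (3.09 ± 0.242) and STAT2 (2.25 ± 0.15) foremost and SOCS1 below 0 (-2.64 ± 0.23). The other 2 above 0 were IRF3 (0.49 ± 0.144) and STAT3 (0.45 ± 0.138), whose effects were called lower at both hours and were smaller at 96 h. The second IRF3 probe passed for this difference (0.46, adjusted p = 0.015), and the second STAT3 probe did not (0.63, adjusted p = 0.0623). From 24 h to 96 h in growth media the difference between effects was above 0 for 4 and below 0 for 1, against 22.2% and 25%. IFNB1 is among these 4, with the same limits of background and filter.

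At 96 h the knockdown effect was lower in differentiation than in growth media for 5 regulators and higher for 0, against 17.3% and 14.4% of all genes (limma; 6 and 0 at an unadjusted p under 0.05). These were IRF1 (-2.28 ± 0.222, adjusted p = 1.71e-07), IRF7 (-1.71 ± 0.256, adjusted p = 3.79e-05), STAT2 (-1.3 ± 0.159, adjusted p = 3.13e-06), SOCS1 (-1.21 ± 0.244, adjusted p = 0.000782) and STAT3 (-0.52 ± 0.147, adjusted p = 0.0115). The second STAT3 probe did not pass for this difference (-0.16, adjusted p = 0.736). For IFNB1 the difference of -1.28 ± 0.675 did not pass the test (adjusted p = 0.194). The hour in differentiation media need not be the same time since transfection as in growth media, so media and time since transfection cannot be told apart in these values.

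Ordered by mean level, IRF7 was highest in siZNF148 at 96 h in growth media (15.58 ± 0.0541 SD), then at 96 h in differentiation media (14.39 ± 0.0263) and at 48 h in growth media (12.36 ± 0.117). These 3 groups and the rest of the order did not overlap, whereas siZNF148 at 48 h in differentiation media (11.17 ± 0.134) and siControl at 96 h in differentiation media (11.03 ± 0.0913) overlapped in part, with arrays from 11.08 to 11.33 and from 10.97 to 11.13. IRF9 had the same pair on top, at 12.18 ± 0.0826 and 11.89 ± 0.11, followed by siControl at 48 h in differentiation media (10.94 ± 0.0639). For STAT2 that siControl group came second (14.57 ± 0.314), after siZNF148 at 96 h in growth media (15.13 ± 0.121), and its arrays overlapped those of siZNF148 at 96 h in differentiation media (14.27 ± 0.0602). IRF1 was highest in siControl at 96 h in differentiation media (9.38 ± 0.0528) and lowest in the siZNF148 groups of differentiation media (both 7.41), which overlapped. IRF3 was highest in the 24 h groups (10.59 and 10.38), which share a slide of their own. SOCS1 was highest in siControl at 96 h in differentiation media (9.09 ± 0.0905) and lowest in siControl at 24 h (7.22 ± 0.00933).

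**Figure D3:**
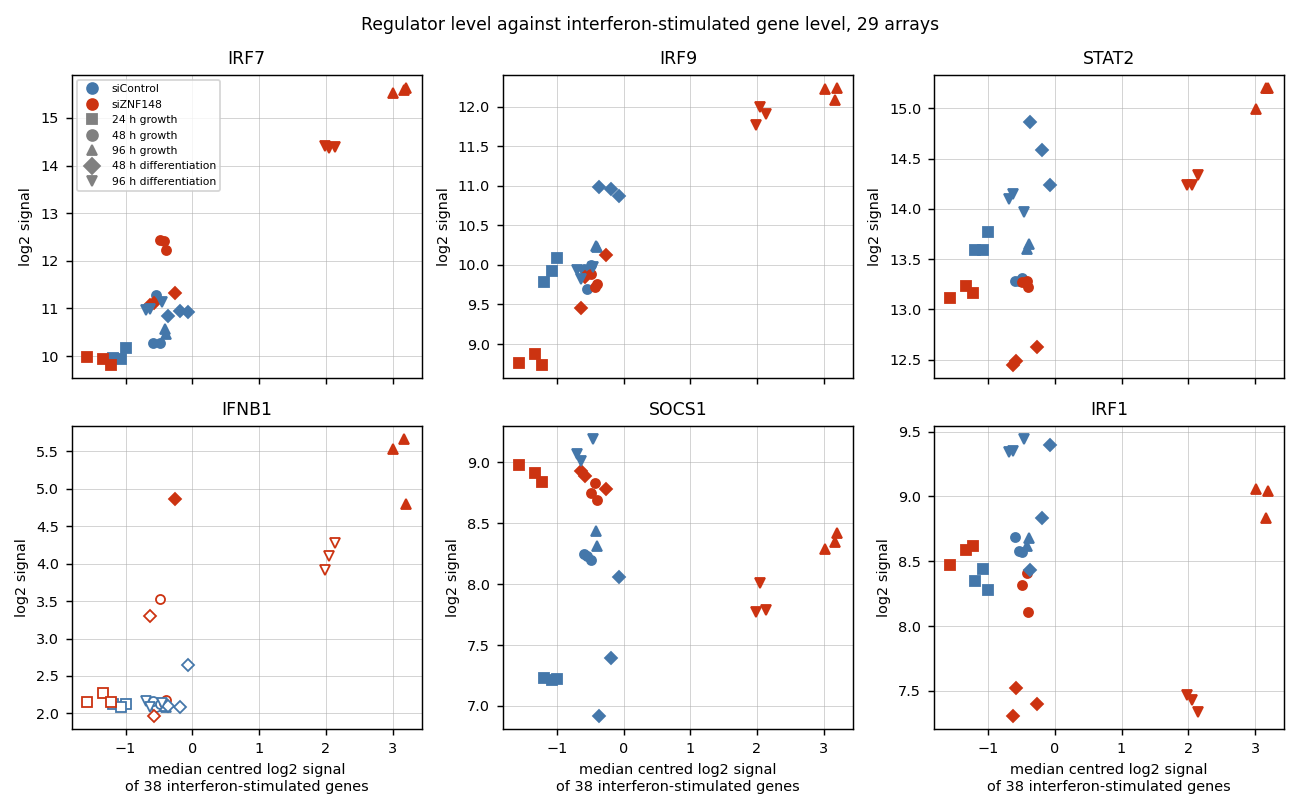
Log2 signal of 6 regulators (vertical) against the median centred log2 signal of the 38 effectors (horizontal) on 29 arrays, with colour for siRNA, shape for hour and media, and open points for arrays where the regulator was not well above background. The siZNF148 arrays at 96 h lie at the right, between 1.98 and 3.2, where IRF7 and IRF9 are high and SOCS1 and IRF1 lie inside the range of the other arrays or, for IRF1 in differentiation media, near its lowest.

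Over the 10 group means, the Pearson correlation with the median level of the effectors was 0.96 for IRF7, 0.92 for IRF9 and 0.71 for STAT2. It was 0.06 for STAT3, -0.09 for IRF2, -0.1 for IRF1, -0.13 for SOCS1 and -0.4 for IRF3. Each r is a description of 10 points, 2 of which hold the high effector levels (both siZNF148 at 96 h) and all of which come from the same normalization. Over all 29 arrays the values were alike for IRF7 (0.96), IRF9 (0.93) and STAT2 (0.71). IFNB1 gave 0.93 over the group means and 0.86 over the arrays, but it was well above background on only 4 of the 29 arrays, all siZNF148, and the other values of its r are background signals.

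The genes with the pattern most like each regulator were sought over the 10 group means among 16173 genes well above background on at least 8 arrays. For IRF7 these were IFIT3 (r = 0.9851), MX1 (0.9809) and IFI6 (0.9746), all 3 interferon-stimulated. For IRF9 they were TDRD7 (0.961), NOD2 (0.9601) and NFE2L1 (0.9589), and for STAT2 RNF31 (0.9516), PARP12 (0.9402) and VSIG10L (0.9301). For IFNB1, with that limit, they were WNT11 (0.9842), RSAD2 (0.9757) and TAC4 (0.9717). The nearest gene was RAB31 for IRF1 (0.9431), TRPC4AP for IRF3 (0.9802), CLDN2 for SOCS1 (0.975) and PDCD1LG2 for IRF2 (0.9096).

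The rest of the pathway was described from lists of other members. Of 20 ligands other than IFNB1, 16 had a probe and 6 passed the filter, and the rest were not tested. Of these 6, 0 were called in either direction at 96 h in growth media by limma, against 26.1% higher and 30.3% lower of all genes. At 96 h in differentiation media 0 were higher and 1 lower, against 25.2% and 34%. Most of the 6 were not well above background in 1 or both groups. Earlier, 0 were higher and 0 lower at 24 h, against 15.7% and 16.8% of all genes. At 48 h in growth media 1 was higher and 1 lower, against 26.9% and 31.1%, with changes from -1.78 to 3.06. At 48 h in differentiation media 0 were higher and 1 lower, against 30.2% and 34.7%.

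Among 9 receptors and kinases, 1 was higher and 3 lower at 96 h in growth media, where 26.1% and 30.3% of all genes were, and 3 and 5 in differentiation media, where 25.2% and 34% were. Lists this short are described beside those shares and not set apart from them. IFNAR1, the receptor chain that IFNB1 needs, was lower in all 5 knockdown comparisons, with log2 changes of -1.69 ± 0.115 at 24 h, -2.7 ± 0.115 at 48 h and -2.38 ± 0.129 at 96 h in growth media, and of -3.38 ± 0.115 at 48 h and -2.54 ± 0.115 at 96 h in differentiation media, each without overlap of the groups. At 24 h IRF7 was not called higher, and 2 of 38 effectors were higher and 16 lower, against 15.7% and 16.8% of all genes. A link between the IFNAR1 change and those of IRF7 or the effectors was not tested, and the 24 h arrays had a slide of their own. The partner chain IFNAR2 was 1.02 ± 0.0826 higher at 96 h in differentiation media (adjusted p = 1.22e-09), and IFNGR2 changed by -0.86 ± 0.1 at 96 h in growth media. IFNLR1, the lambda interferon receptor chain, chosen here after its values were seen, was at least 3.38-fold higher at 96 h in growth media, at least 28.8-fold at 48 h and at least 5.07-fold at 96 h in differentiation media, where it was below background in siControl.

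Of 13 sensors and relays that activate IRF3 and IRF7, 7 were higher and 4 lower at 96 h in each of the media, beside the same shares of all genes. Foremost were IFIH1 (3.89 ± 0.13) and RIGI (2.71 ± 0.109), both sensors of viral RNA, in growth media, and IFIH1 (2.72 ± 0.116) and the relay TRAF6 (1.36 ± 0.0744) in differentiation media. IFIH1, RIGI and DHX58 are also on the effector list. At 48 h 3 were higher and 8 lower in growth media, against 26.9% and 31.1% of all genes, and 2 and 8 in differentiation media, against 30.2% and 34.7%, led by CGAS (-2.08 ± 0.194) and by TLR3 (-2.58 ± 0.153). Of 13 negative regulators other than SOCS1, 2 were higher and 5 lower at 96 h in growth media and 1 and 6 in differentiation media, against 26.1% and 30.3% and against 25.2% and 34% of all genes. USP18, an inhibitor at IFNAR2 that is also on the effector list, was 3.36 ± 0.365 higher in growth media, and CISH, a relative of SOCS1, changed by -1.57 ± 0.122 in growth and -1.23 ± 0.109 in differentiation media. At 24 h, the hour at which SOCS1 rose most, 2 of the 13 were higher and 3 lower, against 15.7% and 16.8% of all genes. The 2 higher were SOCS2 (0.86 ± 0.22) and SOCS3 (0.78 ± 0.145).

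**Figure D4:**
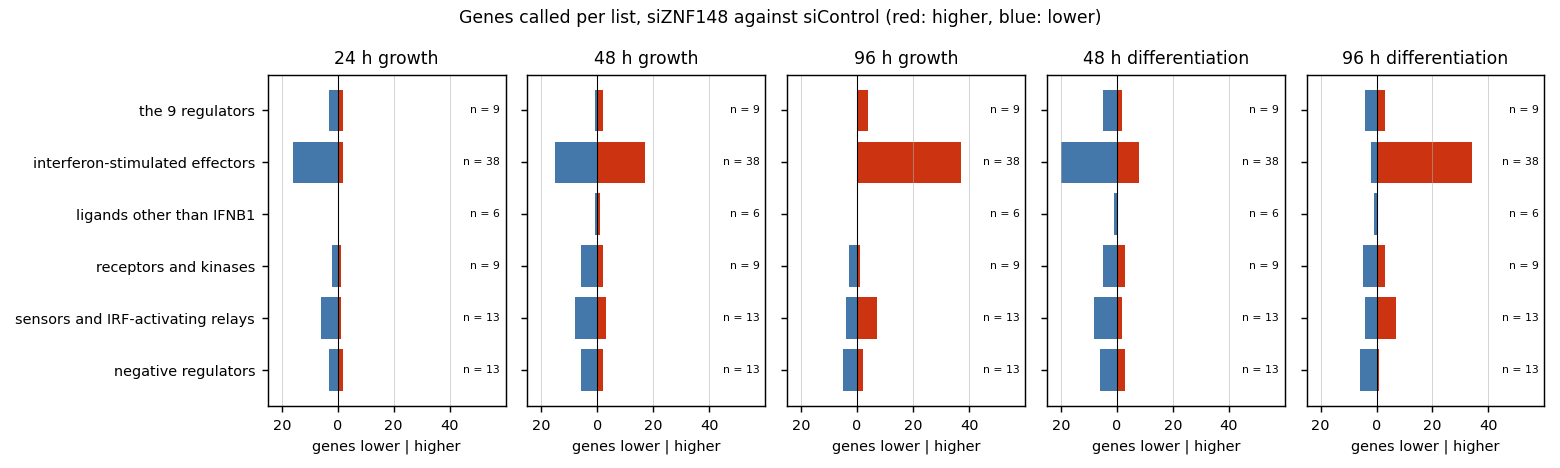
Number of genes called higher (red, to the right) and lower (blue, to the left) in each list shown, in the 5 knockdown comparisons, with n the genes tested. The effectors have 37 of 38 higher at 96 h in growth media and 34 in differentiation media. The ligand list, with 6 of 20 genes tested and IFNB1 left out, has 0 and 0 higher. IFNB1 is counted among the 9 regulators.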

How the data were processed

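RNA of 29 LHCN-M2 cultures was measured on 1-colour Agilent arrays with 62976 spots each. The deposited intensities are background-subtracted signals on a linear scale, made by the authors with Agilent Feature Extraction (10.7.3.1 in the submitters' processing notes), with flags for spots well above background and for outliers. A second deposited table holds log2 values that the authors quantile-normalized across the arrays. The values used here were computed from the intensities. Control and outlier spots were left out, spots of a probe averaged, and log2 values quantile-normalized, and they differed from the deposited log2 matrix by at most 0.04 for the regulators. The matrix was an alternative. The share of probes well above background ran from 41.5% to 56.5% per array; precision is limited by the number of arrays.

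Testing was limited to probes that 2 or more arrays had well above background, and used limma 3.58.1 in R 4.3.3, in 1 fit of 10 group means, two-sided, with Benjamini-Hochberg adjustment over all 38714 probes and a call at an adjusted p under 0.05. Where several tested probes named 1 gene, the brightest by mean signal stands for it. Genes were named through unversioned RefSeq accessions of GRCh38.p14, which gave names to 31104 probes. Of the array headers, 14 name the build hg19.

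The regulators, lists and motifs were chosen with earlier results of these data known. Named from each list were the 2 largest called changes (4 for effectors at 96 h) among genes that no array of the compared groups had below background. Replicate numbers did not pair the arrays (correlations of deviations from -0.15 to 0.12), so the reported fit has no replicate block. These numbers are those of the sample titles; for the 48 h siZNF148 arrays in growth media the descriptions give 3, 4 and 5 in place of 1, 2 and 3, which leaves the check and the block less certain there. Some results are not reported here. The alternatives were other scaling, background correction, filters, variance models, replicate and slide blocks, fits of 1 comparison, the methods' t-test, a 2-fold threshold, probe means, and leaving out each array in turn.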

Additional observations from a re-analysis of the deposited data

Results flagged for a closer look

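For the regulators below, the effect of siZNF148 differed between hours or media by a direct test of the difference in the limma fit (log2, adjusted p under 0.05). Groups of 3 or fewer arrays were not tested for single outlying arrays.

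In growth media the effect at 96 h exceeded that at 48 h by 3.32 for IRF7, 2.04 for IRF9, 1.53 for STAT2 and 2.75 for IFNB1. It exceeded that at 24 h by 5.18 for IRF7, 3.09 for IRF9, 1.99 for STAT2 and 3.17 for IFNB1, and the difference was -1.71 for SOCS1, which changed by 1.69 at 24 h and -0.02 at 96 h. In differentiation media the effect at 96 h exceeded that at 48 h by 3.09 for IRF7, 3.11 for IRF9, 2.25 for STAT2, 0.49 for IRF3 and 0.45 for STAT3, and the difference was -2.64 for SOCS1.

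Between the media at 96 h, the effect in differentiation media minus that in growth media was -2.28 for IRF1, -1.71 for IRF7, -1.3 for STAT2, -1.21 for SOCS1 and -0.52 for STAT3. For IRF9 the same difference was 0.04 (adjusted p = 0.914). IRF1 was the regulator whose effect differed most between the media, at 0.32 in growth media and -1.96 in differentiation media. Neither STAT3 difference passed with the second STAT3 probe. It gave 0.63 between the hours in differentiation media (adjusted p = 0.0623) and -0.16 between the media (adjusted p = 0.736). The IFNB1 differences rest on siControl and earlier siZNF148 arrays that were not well above background, so they have no bound. IFNB1 also passed the filter only through siZNF148 arrays, 3 of them at 96 h in growth media. Its calls are therefore not independent of the filter.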

How the results depend on the processing

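Over the 5 knockdown comparisons, 877 changes of a regulator were recomputed under alternatives, of which 832 kept their side of the threshold, 31 lost the call, 14 gained it and 0 called changes turned in sign. The counts of regulators called in a knockdown comparison, 5 at 24 h, 3 and 4 at 48 h and 96 h in growth media and 7 and 7 in differentiation media, stayed within 1.5 times except when a 2-fold change was also required, which left 3 at 24 h (IRF2 among them by its fitted change, with a bound of 1.31-fold) and 1 at 48 h in growth media. Between 48 h and 96 h in siControl in differentiation media, 5 were called, and 2 in a fit of that comparison alone, 3 by the methods' t-test without adjustment, 2 with it and 2 with a 2-fold change required; in growth media the methods' t-test without adjustment called 1 in place of 0. With the replicate block the counts were 5, 3, 4, 6 and 7 in the knockdown comparisons, and only the IFNB1 call at 48 h in differentiation media was lost by the block (adjusted p = 0.055). Leaving out 1 array at a time gave 4 to 5, 3 to 3, 4 to 5, 6 to 7 and 6 to 7 in the knockdown comparisons, 0 to 0 and 4 to 5 over time in siControl, 5 to 7 and 4 to 5 over time in siZNF148 (growth, then differentiation media), and 4 to 5, 6 to 7, 5 to 5 and 5 to 6 for the differences of 96 minus 48 h in growth and in differentiation media, of media at 96 h and of 96 minus 24 h. The IFNB1 call at 48 h in differentiation media was lost under 13 of 19 alternatives, and its change at 96 h in growth media ran from 0.69 with normexp to 3.57 with 75th percentile scaling; the cause was not tested. Scaling to the 75th percentile moved the median change of all probes at 96 h in differentiation media from -0.04 to 0.1, beside a move of STAT2 from 0.2 to 0.35. The calls of IRF7 and IRF9 at 96 h and of IRF7 at 48 h in growth media held under every alternative run. The methods' t-test without adjustment also called IRF1 at each hour in growth media, IRF3 at 24 h, IRF7 at 48 h and STAT2 and IRF2 at 96 h in differentiation media. The stricter filter left IFNB1 out, and the methods' t-test was not run on differences between effects. Limits are the 2 siControl arrays at 96 h in growth media, IFNB1 and IRF2 signals near background, and a 24 h time point on a slide of its own.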
